A study of Homo sapiens with 48 samples.

Results

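Replication-dependent histone genes were taken as the protein-coding genes of GENCODE 29 whose symbols begin with HIST1H, HIST2H, HIST3H or HIST4H, and 71 of the 58721 genes in the tables met this rule. They comprised 6 genes of linker histone H1, 17 of H2A, 18 of H2B, 15 of H3 and 15 of H4. Of these, 55 lie on chromosome 6, 15 on chromosome 1 and 1 on chromosome 12. RNA came from the human colorectal cancer line DLD-1 in 3 forms that all carried TIR1, the plant auxin receptor: parental cells without a tag, CNOT1-AID cells and CNOT4-AID cells, in which an auxin-inducible degron (AID) was placed at the CNOT1 or the CNOT4 locus so that auxin removes the tagged protein. Steady-state RNA was measured at 8 h and at 24 h in each line, without auxin or with 1 mM of it (24 libraries in 12 groups of 2). RNA loss was measured in each line at 0, 3, 6 and 12 h of triptolide (1 µM), a blocker of transcription initiation, added after 2 h of 1 mM auxin (again 24 libraries in 12 groups of 2). The labels do not state how many clones each tagged line represents or whether the libraries of a group came from separate cultures, so p-values measure only the spread between these samples.

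Most histone protein is made during S phase from mRNAs that end in a conserved stem loop rather than a poly(A) tail. The stem loop is bound by SLBP, which acts in 3′ end formation, translation and turnover of these mRNAs, and their fast loss at the end of S phase involves oligouridylation, the LSM1 complex, UPF1 and the exonuclease ERI1. CCR4-NOT, for which CNOT1 is the scaffold and to which the ubiquitin ligase CNOT4 binds, is best known for shortening poly(A) tails. Libraries were prepared from total RNA after ribosomal RNA removal, so RNAs without a poly(A) tail could be sequenced.

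The stem loop is shown for members on which the results turn, because histone mRNAs without a poly(A) tail end there. The GENCODE models can run past it, by up to 1059 bases for HIST1H2BG, 1729 for HIST2H2BE, 1510 for HIST4H4 and 1167 for HIST2H4A. For HIST1H2AE, HIST1H2BC and HIST1H4B they run on by 51, 116 and 86 bases. Whether the reads came from RNA ending at the loop or running past it was not tested. A 16-base stem loop with the letters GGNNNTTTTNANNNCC and 6 paired stem positions was found after the stop codon in the GENCODE 29 transcripts of 30 of the 71 genes. The models of 35 genes end at the stop codon and so hold no sequence after it. The windows below are written 5′ to 3′ on the sense strand as DNA letters, with the stem loop in capitals.
HIST1H2BG: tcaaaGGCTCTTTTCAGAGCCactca
HIST1H2AE: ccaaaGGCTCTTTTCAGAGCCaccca
HIST2H2BE: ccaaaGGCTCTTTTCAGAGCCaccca
HIST1H2BC: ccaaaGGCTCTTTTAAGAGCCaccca
HIST1H4B: ccaatGGCCCTTTTCAGGGCCgccca
HIST4H4: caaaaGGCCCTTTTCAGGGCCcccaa
HIST2H4A: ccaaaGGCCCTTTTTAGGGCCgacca
The capitals lie at chr6:26216218-26216233 (minus strand) for HIST1H2BG, chr6:26217417-26217432 (plus strand) for HIST1H2AE, chr1:149886188-149886203 (minus strand) for HIST2H2BE and chr6:26123472-26123487 (minus strand) for HIST1H2BC. Those of the H4 genes lie at chr6:26026901-26026916 (minus strand) for HIST1H4B, chr12:14770724-14770739 (minus strand) for HIST4H4 and chr1:149833032-149833047 (plus strand) for HIST2H4A, all on GRCh38. The loop of HIST1H2BG, HIST1H2AE and HIST2H2BE was found in 6 H2A, 8 H2B and 3 H3 genes, and that of HIST1H2BC in 3 H2B and 2 H3 genes. The loop of HIST1H4B and HIST4H4 was found in 5 H4 genes and that of HIST2H4A in 3 H4 genes. HIST1H2BG and HIST2H2BE thus carry the same 16 letters, and their RNA levels moved in opposite directions with auxin in CNOT1-AID cells, as described next. Whether the stem loop bears on these changes was not tested.

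Of the 71 genes, 61 reached 1 TPM (a length-corrected abundance that sums to the same total in each library) in at least 2 steady-state libraries and were tested, and 60 were tested in the triptolide counts. The 10 genes below the steady-state filter were HIST1H1A, HIST1H1T, HIST1H2AA, HIST1H2BA, HIST1H2BI, HIST1H3C, HIST1H3G, HIST1H4F, HIST1H4G and HIST3H3. HIST1H2AA and HIST1H2BI were listed at 0 in all 24 steady-state libraries. HIST1H2BB passed only through the CNOT1-AID libraries with auxin at 24 h, where it held 1.04 and 1.06 TPM against 0.4 and 0.29 without auxin, so its call follows from the filter. The summed histone TPM ran from 9850 to 17881 per library (0.985% to 1.79% of all TPM), and the sequencing depth behind the TPM is unknown. The triptolide libraries held 18216427 to 26723618 counts, of which histone genes took 13078 to 184241.

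The colorectal label was checked against marker genes: 8 of 9 colon epithelial genes averaged 1 TPM or more, against 0 of 4 fibroblast genes, 0 of 3 endothelial genes and 1 of 4 blood genes. CNOT1 RNA stood at 83.82 to 95.17 TPM in untreated parental cells, 48.97 to 68.37 in untreated CNOT1-AID cells and 39.89 to 48.26 in CNOT1-AID cells with auxin. The degron acts on protein, so these RNA levels do not check the depletion. The small nuclear RNA share of TPM ranged from 15.9% to 34.1% between libraries and the protein-coding share from 30.6% to 54.7%, and the first 8 h library of auxin-treated CNOT4-AID cells (replicate 1) held both the lowest coding and the highest small nuclear share. Their part in the results was not tested.

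With auxin in CNOT1-AID cells the histone genes split. A small set rose several-fold, led by HIST1H2BG, HIST1H2AE, HIST1H2BM, HIST1H2BE and HIST1H1D, while most members fell by 24 h relative to the average gene. At 8 h 12 of 61 genes were higher and 25 lower (limma, Benjamini-Hochberg adjusted p under 0.05), where 33.1% of all 14921 tested genes were higher and 29.8% lower. At 24 h 8 were higher, among them HIST1H2BB, and 39 lower, beside 36.7% and 34.8% of all genes. The median log2 change of the members was -0.21 at 8 h and -0.58 at 24 h, against 0 and -0.0064 over all genes. In parental cells, which have no degron, the members' median with auxin was -0.205 at 8 h, about the same as in CNOT1-AID cells, and -0.053 at 24 h. The median difference between the lines was -0.001 at 8 h and -0.50 at 24 h, and the median at 8 h thus lay below 0 by about as much without the degron.

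These counts depend on the scaling, which here was TMM (trimmed mean of M values). Scaling to the ERCC spike-in RNA instead moved the median of all genes to 0.41 at 8 h and 0.30 at 24 h on the log2 scale. The member counts then became 32 higher and 1 lower at 8 h and 12 higher and 25 lower at 24 h. Of all 14921 genes 7764 were then higher and 1437 lower at 8 h, and 6877 and 2925 at 24 h. With no scaling the member counts were 18 higher and 6 lower at 8 h and 12 higher and 31 lower at 24 h. Among all genes 6624 were higher and 2251 lower at 8 h without scaling, and 6546 and 3564 at 24 h. More members were lower than higher at 24 h under each scaling tried, while at 8 h the balance turned. The 25 lower at 8 h became 9 without replicate 1 of untreated CNOT1-AID cells at 8 h and 15 without replicate 1 of those with auxin.

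**Figure D1:**
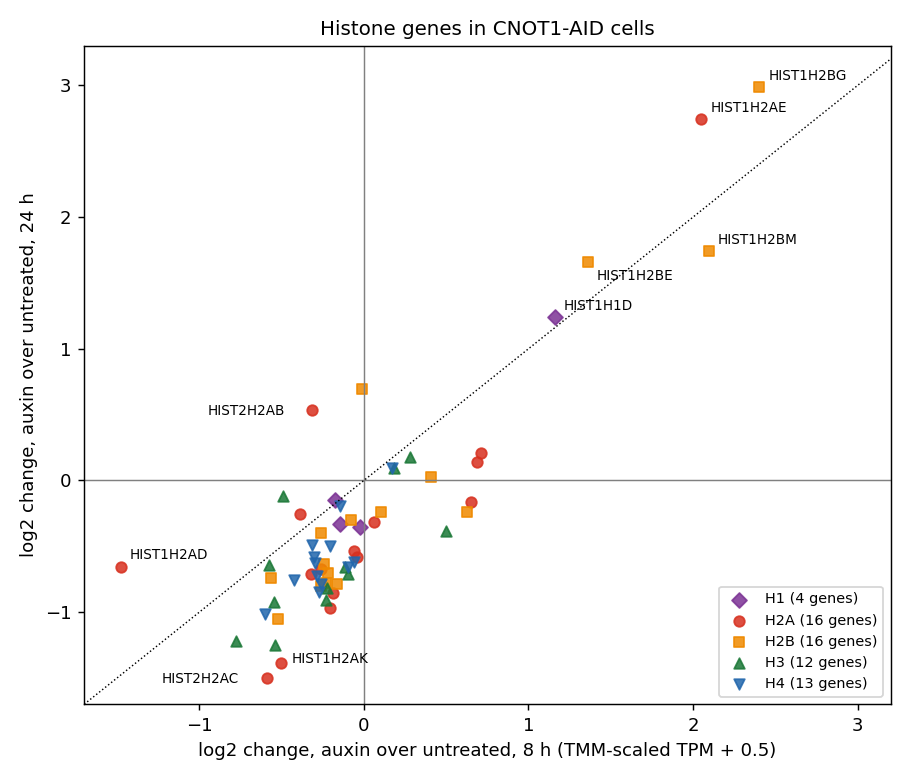
Log2 change with auxin in CNOT1-AID cells at 8 h (x axis) and 24 h (y axis) for the 61 tested histone genes, coloured by class, after TMM scaling. HIST1H2BG, HIST1H2AE, HIST1H2BM, HIST1H2BE and HIST1H1D stand apart above 1 at both times, and most other genes lie below 0 at 24 h. Under ERCC scaling 32 of these 61 genes were called higher and 1 lower at 8 h, beside 7764 and 1437 of all 14921 genes.

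The counts by class stand beside 33.1% higher and 29.8% lower of all genes at 8 h, and 36.7% and 34.8% at 24 h. Linker histone H1 genes, whose products bind DNA between nucleosomes, had 1 higher and 0 lower of 4 at 8 h. At 24 h the H1 genes had 1 higher and 2 lower. Of 16 H2A genes 4 were higher and 8 lower at 8 h, and 2 and 9 at 24 h. Of 16 H2B genes 5 were higher and 7 lower at 8 h, and 4 and 10 at 24 h, where the 4 include HIST1H2BB, whose call follows from the filter. H2A and H2B form the outer dimers of the nucleosome. Of 12 H3 genes 2 were higher and 3 lower at 8 h, and 1 and 7 at 24 h. No H4 gene was higher at either time, and 7 of 13 were lower at 8 h and 11 at 24 h. Under ERCC scaling, however, 3 H4 genes were higher and 0 lower at 8 h, beside 7764 and 1437 of all 14921 genes. Differences between the classes were not tested. At both times 6 genes were higher and 22 lower, while HIST3H2BB was higher at 8 h and lower at 24 h and HIST2H2AB the reverse.

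HIST1H2BG (ENSG00000273802.2, chr6:26215159-26216692, minus strand), an H2B gene with a single exon, showed the largest rise at both times. Its level went from 0.93 and 0.88 TPM to 8.13 and 8.83 with auxin at 8 h, and from 1.54 and 1.36 to 18.55 and 17.68 at 24 h. All auxin libraries lay above all untreated ones, and the 24 h pair was the highest of all 24 libraries. The log2 change was 2.40 at 8 h (SE 0.11, limma adjusted p = 1.63e-11) and 2.99 at 24 h (SE 0.11, limma adjusted p = 4.75e-13). In parental cells HIST1H2BG held 1.34 and 1.39 TPM untreated and 1.18 and 1.23 with auxin at 8 h, and 1.49 and 1.63 against 1.66 and 1.59 at 24 h. These parental levels are all far below those of the CNOT1-AID libraries with auxin.

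HIST1H2AE (ENSG00000277075.2, chr6:26216975-26217483, plus strand) is the H2A gene next to it. It went from 11.22 and 9.12 TPM to 53.17 and 53.67 at 8 h, and from 10.05 and 12.27 to 94.6 and 91.28 at 24 h. The groups did not overlap, and the auxin libraries were far above every library of the other lines. The log2 change was 2.05 at 8 h (SE 0.14, limma adjusted p = 1.29e-09) and 2.75 at 24 h (SE 0.14, limma adjusted p = 1.53e-11). The H2B gene HIST1H2BM (chr6:27815044-27815424, plus strand) went from 21.52 and 19.99 TPM to 107.19 and 114.83 at 8 h, and from 29.68 and 24.67 to 111.19 and 108.63 at 24 h. Its auxin libraries again lay above all untreated ones, at about the same level at both times. The log2 change was 2.10 at 8 h (SE 0.14, limma adjusted p = 1.83e-09) and 1.74 at 24 h (SE 0.14, limma adjusted p = 9.92e-09).

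HIST1H2BE, another H2B gene, and the linker histone gene HIST1H1D started from higher levels, and both were chosen for description after their values were seen. HIST1H2BE went from 55.68 and 47.64 TPM to 157.6 and 169.88 at 8 h and from 60.06 and 53.7 to 214.59 and 218.38 at 24 h. Untreated parental cells held 159.47 to 185 TPM of HIST1H2BE over 4 libraries, and the 4 untreated CNOT1-AID libraries held 47.64 to 60.06. The untreated CNOT1-AID libraries were thus all below the parental ones, and those with auxin lay near the parental range at 8 h and above it at 24 h. The log2 change of HIST1H2BE was 1.36 at 8 h (SE 0.095, limma adjusted p = 2.26e-09) and 1.66 at 24 h (SE 0.095, limma adjusted p = 9.12e-11).

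HIST1H1D went from 104.36 and 100.58 TPM to 281.44 and 282.56 at 8 h and from 127.53 and 126.35 to 363.97 and 356.5 at 24 h. The groups did not overlap, and all 4 auxin libraries lay above the untreated parental range of 150.42 to 200.01. Its log2 change was 1.16 at 8 h (SE 0.06, limma adjusted p = 7e-11) and 1.24 at 24 h (SE 0.06, limma adjusted p = 1.31e-11). HIST1H2BG, HIST1H2AE, HIST1H2BM, HIST1H2BE and HIST1H1D were called higher at both times under TMM, median-of-ratios, ERCC and no scaling.

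A further group was higher at 8 h and not at 24 h. HIST3H2A, an H2A gene of chromosome 1, went from 10.51 and 10.13 TPM to 20.57 and 19.93 at 8 h, a log2 change of 0.65 (SE 0.085, limma adjusted p = 4.2e-06). At 24 h it held 10.84 and 10.09 TPM untreated and 11.46 and 10.85 with auxin, values that nearly meet. Its neighbour HIST3H2BB went from 8.16 and 7.4 to 15.25 and 14.92 TPM at 8 h, and from 7.39 and 7.54 to 7.87 and 7.09 at 24 h. HIST3H2BB thus stood apart at 8 h, and its pairs overlapped at 24 h in the deposited TPM.

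HIST2H2AB took the opposite course, with 93.24 and 83.67 TPM untreated against 82.39 and 92.05 with auxin at 8 h, where the pairs overlapped. At 24 h HIST2H2AB held 104.41 and 99.26 TPM against 175.56 and 178.84, where they did not (log2 change 0.535, SE 0.10, limma adjusted p = 0.000102). HIST2H2AB overlaps BOLA1 on the other strand, and whether the authors' counting used strand is not given in the sources used here.

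**Figure D2:**
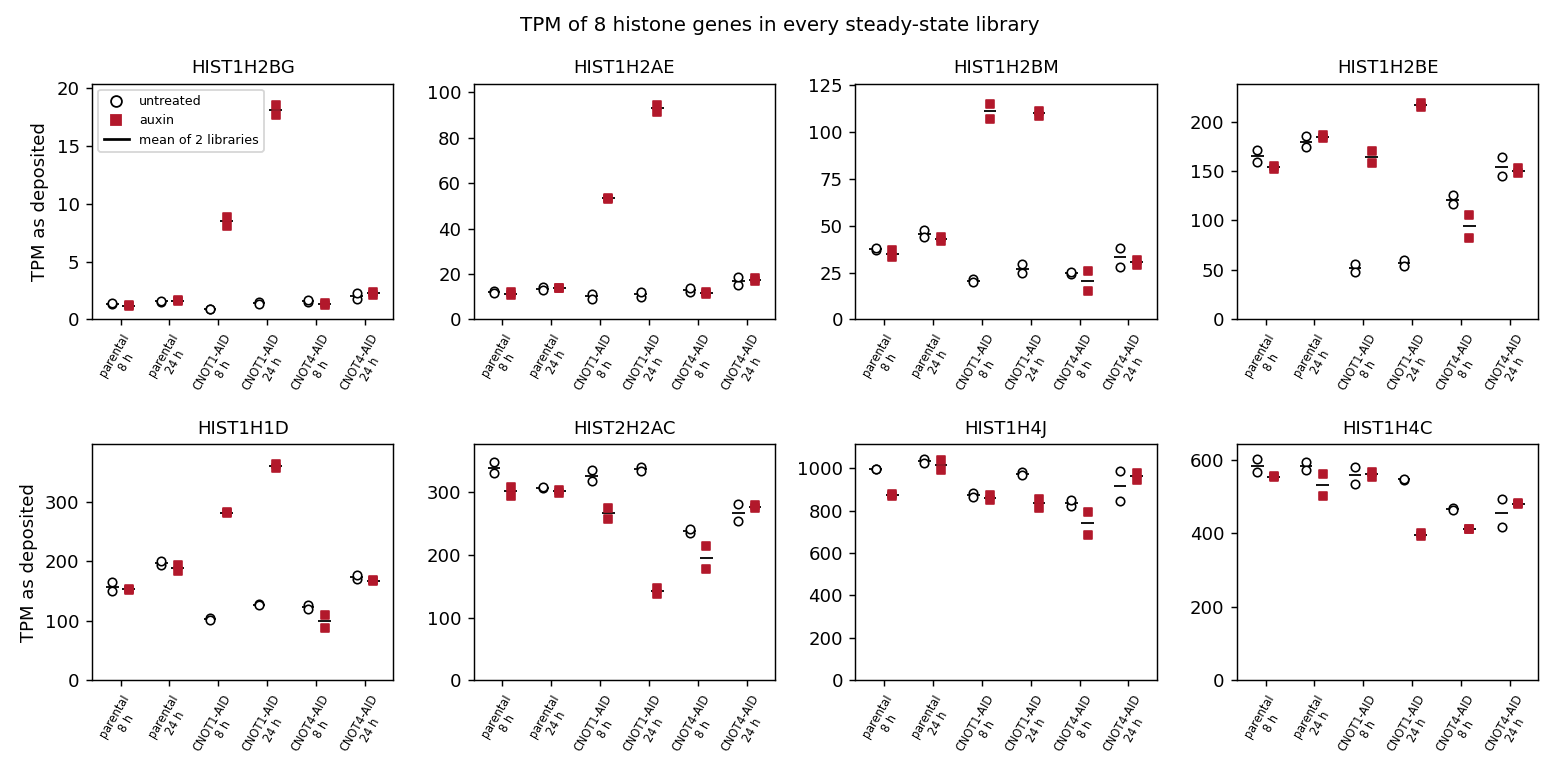
TPM as deposited for 8 histone genes in every steady-state library, by line and time (circles untreated, squares with auxin, bars the mean of 2 libraries). The squares of CNOT1-AID cells lie above the circles for HIST1H2BG, HIST1H2AE, HIST1H2BM, HIST1H2BE and HIST1H1D at both times and below them at 24 h for HIST2H2AC, HIST1H4J and HIST1H4C, and no gene passed the test in CNOT4-AID or parental cells.

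The largest falls were in H2A, H3 and H4 genes. HIST2H2AC, an H2A gene on chromosome 1, went from 335 and 318.73 TPM to 258.03 and 274.62 at 8 h, and from 340.48 and 333.71 to 148.02 and 137.03 at 24 h. The auxin libraries lay below all untreated CNOT1-AID ones at both times, and the 24 h pair was the lowest of all 24 libraries. The log2 change was -0.59 at 8 h (SE 0.07, limma adjusted p = 8.31e-07) and -1.50 at 24 h (SE 0.07, limma adjusted p = 4.14e-12). Under ERCC scaling it was -0.12 at 8 h, not called (limma adjusted p = 0.282), and -1.14 at 24 h.

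HIST1H2AK, another H2A gene, held 134.33 and 135.54 TPM untreated and 110.29 and 123.35 with auxin at 8 h, and 142.64 and 140.68 against 64.74 and 64.54 at 24 h. The 24 h groups stood far apart, with a log2 change of -1.39 (SE 0.09, limma adjusted p = 4.91e-10). HIST1H2AK overlaps HIST1H2BN on the other strand. HIST2H3C, an H3 gene, held 144.35 and 162.74 TPM untreated and 63.67 and 92.61 with auxin at 24 h, a log2 change of -1.25 (SE 0.30, limma adjusted p = 0.00209). All of its 50-base windows occur in another histone gene as well, so its reads cannot be assigned to it alone.

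HIST4H4, the H4 gene on chromosome 12, held 76.12 and 71.95 TPM against 57.59 and 62.01 at 8 h and 81.97 and 74.72 against 49.76 and 42.8 at 24 h. Its groups did not overlap at either time, with a log2 change of -0.60 at 8 h (SE 0.10, limma adjusted p = 6.69e-05), which was -0.13 and not called under ERCC scaling. HIST1H2AD had the largest fall at 8 h, from 29.29 and 33.01 TPM to 11.62 and 15.32 (log2 change -1.48, SE 0.36, limma adjusted p = 0.00256). At 24 h its untreated libraries held 34.01 and 21.02 TPM and its auxin libraries 17.33 and 23.43, which overlapped. HIST1H2AD shares its strand with the overlapping gene AL031777.3.

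Abundant members fell at 24 h as well. With TMM scaling 36.7% of all genes were higher and 34.8% lower at 24 h. Of the 42 members with a mean of 100 TPM or more, 4 were higher and 31 lower at 24 h, with a median log2 change of -0.63. Of the 19 tested members under 100 TPM 4 were higher and 8 lower, with a median of -0.24. These 4 include HIST1H2BB, whose call follows from the filter. HIST2H2AA4, the H2A gene with the highest mean, held 1210.02 and 1149.8 TPM against 1378.38 and 1403.38 with auxin at 8 h, a log2 change of -0.06 after TMM scaling that was not called. The deposited TPM and the TMM-scaled value of HIST2H2AA4 thus had opposite signs at 8 h. At 24 h HIST2H2AA4 held 1342.48 and 1332.47 TPM against 1109.09 and 1101.19, without overlap and with a log2 change of -0.54. HIST1H4J, the most abundant H4 gene, held 980.04 and 968.07 TPM untreated and 811.74 and 854.98 with auxin at 24 h, again without overlap and with a log2 change of -0.49. Of the 50-base windows of HIST2H2AA4 97.1% occur in another gene too, and of those of HIST1H4J 81.2%, so their reads cannot be assigned to them alone. Both of these 24 h falls passed with limma and did not pass under ERCC scaling (-0.17 and -0.12).

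The other abundant genes called lower at 24 h were HIST1H1E (-0.33), HIST1H2AH (-0.86), HIST1H2BK (-0.80), HIST1H2BC (-0.78), HIST1H3B (-0.905), HIST1H3J (-0.66) and HIST1H4H (-0.66), whereas HIST1H1C (-0.15) was not called. Other genes hold 74.1% of the 50-base windows of HIST1H2BK and 40.9% of those of HIST1H3J. At 8 h each of these 8 genes had a negative TMM-scaled change and a positive ERCC-scaled one.

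A sum over all members depends less than single genes on how reads shared between near-identical copies were assigned. TPM is corrected for length, so such reads still matter where models differ in length, from 411 bases for HIST2H3D to 1656 for HIST2H3C. Summed over all members, the deposited TPM was 16002 and 15237 in untreated CNOT1-AID cells and 16862 and 17674 with auxin at 8 h. At 24 h the sum was 17218 and 16779 untreated and 14160 and 13961 with auxin. The auxin pair lay above the untreated pair at 8 h, at a ratio of 1.11, and below it at 24 h, at a ratio of 0.827. With TMM scaling these ratios were 0.897 and 0.69, and with ERCC scaling 1.25 and 0.888. The H1 sum had a ratio of 1.21 at 24 h as deposited, 1.01 with TMM scaling and 1.29 with ERCC scaling, against 0.786 to 0.816 as deposited for the sums of the 4 core classes. The rise of the H1 sum came from HIST1H1D: without it the H1 sum was 1076 and 1010 TPM untreated and 1043 and 1057 with auxin at 24 h, where the pairs overlapped, at a ratio of 1.01 as deposited, 0.84 with TMM and 1.08 with ERCC scaling.

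Histone genes stand in clusters, and H2A and H2B genes often lie head to head, with their start sites close together and transcription running outward. By the ends of the GENCODE gene models there were 12 such pairs among the members, and 11 joined an H2A with an H2B gene. Calls and log2 changes of the pairs are those of CNOT1-AID cells after TMM scaling. HIST1H2BG and HIST1H2AE form one, 283 bases apart, and both were higher at both times. HIST1H2AJ and HIST1H2BM, 304 bases apart, were both higher at 8 h (log2 change 0.69 and 2.10), and at 24 h HIST1H2BM was (1.74) while HIST1H2AJ was not called (0.14). HIST1H2AJ shares 83.7% of its 50-base windows with other genes. HIST3H2A and HIST3H2BB, 234 bases apart, were both higher at 8 h.

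HIST2H2BE and HIST2H2AC, 323 bases apart, were both lower, at -0.52 and -0.59 at 8 h and -1.05 and -1.50 at 24 h. A further 3 pairs (HIST1H2BC and HIST1H2AC, HIST1H2BK and HIST1H2AH, HIST1H2AM and HIST1H2BO) had both genes lower at both times with TMM scaling. In the deposited TPM no gene of these 3 pairs had both auxin libraries below both untreated ones at 8 h. HIST1H2AM, for example, held 515.69 and 505.92 TPM untreated and 516.13 and 532.56 with auxin. The ERCC-scaled changes of HIST1H2BC, HIST1H2BK and HIST1H2AH at 8 h were positive. The calls of the other tested pairs differed at some time. HIST1H2BL was called higher at 8 h (0.41) and HIST1H2AI was not (-0.045), and at 24 h HIST1H2AI was lower (-0.58) and HIST1H2BL not called (0.03). HIST1H2AD was lower at 8 h (-1.48) and HIST1H2BF not called (-0.08), while at 24 h HIST1H2BF was lower (-0.30) and HIST1H2AD not called (-0.65). HIST1H2AG was lower at 8 h (-0.21) and HIST1H2BJ not called (-0.16), and both were lower at 24 h (-0.97 and -0.79). HIST1H3J and HIST1H2BO, the pair of an H3 and an H2B gene, likewise had HIST1H2BO alone lower at 8 h (-0.22 against -0.11) and both lower at 24 h (-0.70 and -0.66). This pair rests only on the outer end of the HIST1H3J gene model, which overlaps HIST1H2AM on the same strand. The coding transcript of HIST1H3J has 411 bases in 1 exon, and no RefSeq start was matched to it. The start sites of HIST1H3J and HIST1H2BO may thus lie farther apart. Of HIST3H2A and HIST3H2BB only HIST3H2BB was called at 24 h (-0.24, lower, against -0.16). HIST1H2AA and HIST1H2BA were not tested. Outside these pairs, HIST1H2AK and HIST1H2BN also stand head to head by their RefSeq start sites on chromosome 6 (27838375 and 27838569). Their GENCODE models overlap, so the gene ends did not make them a pair. In CNOT1-AID cells at 24 h HIST1H2AK was lower, as given above. HIST1H2BN then held 175.17 and 172.21 TPM untreated and 160.26 and 154.45 with auxin.

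The stretches between the start sites are shown for the pair that rose most, the HIST1H2BM pair and the pair that fell most, because both genes of a pair share them. They come from the RefSeq promoter windows on GRCh38.p14 and read toward the H2A gene, with the octamer ATTTGCAT, the TATA box letters TATAAA and the box CCAAT in capitals on either strand.
HIST1H2BG to HIST1H2AE, chr6:26216689-26216920, plus strand: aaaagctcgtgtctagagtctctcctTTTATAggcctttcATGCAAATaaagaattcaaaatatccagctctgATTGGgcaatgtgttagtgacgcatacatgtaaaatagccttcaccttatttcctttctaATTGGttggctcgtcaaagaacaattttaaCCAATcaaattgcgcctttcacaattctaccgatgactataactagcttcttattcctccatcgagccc
HIST1H2BM to HIST1H2AJ, chr6:27814778-27815021, minus strand: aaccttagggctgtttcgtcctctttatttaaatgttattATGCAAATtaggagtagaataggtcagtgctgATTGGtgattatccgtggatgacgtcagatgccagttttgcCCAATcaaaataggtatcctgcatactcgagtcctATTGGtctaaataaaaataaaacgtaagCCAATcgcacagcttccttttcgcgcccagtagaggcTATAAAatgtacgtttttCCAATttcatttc
HIST2H2BE to HIST2H2AC, chr1:149886683-149886917, plus strand: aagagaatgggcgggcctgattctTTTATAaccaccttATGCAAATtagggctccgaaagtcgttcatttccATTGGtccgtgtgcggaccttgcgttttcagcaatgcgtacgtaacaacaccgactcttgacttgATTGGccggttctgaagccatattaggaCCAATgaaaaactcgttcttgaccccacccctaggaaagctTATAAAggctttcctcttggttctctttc
The rising HIST1H2BG pair and the falling HIST2H2BE pair each held 3 CCAAT matches and 1 ATTTGCAT match, with 1 TATAAA match in the former and 2 in the latter. The HIST1H2BM pair held 1 TATAAA match, 5 CCAAT matches and 1 ATTTGCAT match. Windows of 300 bases around the start were matched for 65 of the 71 members. TATAAA stood in 67.7% of them against 12% of all 27305 RefSeq windows, CCAAT in 84.6% against 35.7%, and ATTTGCAT in 36.9% against 1.8%, searched on both strands. ATTTGCAT, the octamer that POU factors bind, was found in 11 of 16 H2A and 13 of 17 H2B windows and in 0 windows of the other classes, and CCAAT in 3 of 13 H4 windows. A match describes the letters and is no evidence of binding.

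On chromosome 6, HIST1H2BG, HIST1H2AE and HIST1H1D stand at places 24, 25 and 27 of the 55 members, with HIST1H3E at place 26 between them. HIST1H2BE stands at place 18 and HIST1H2BM at place 44.

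**Figure D3:**
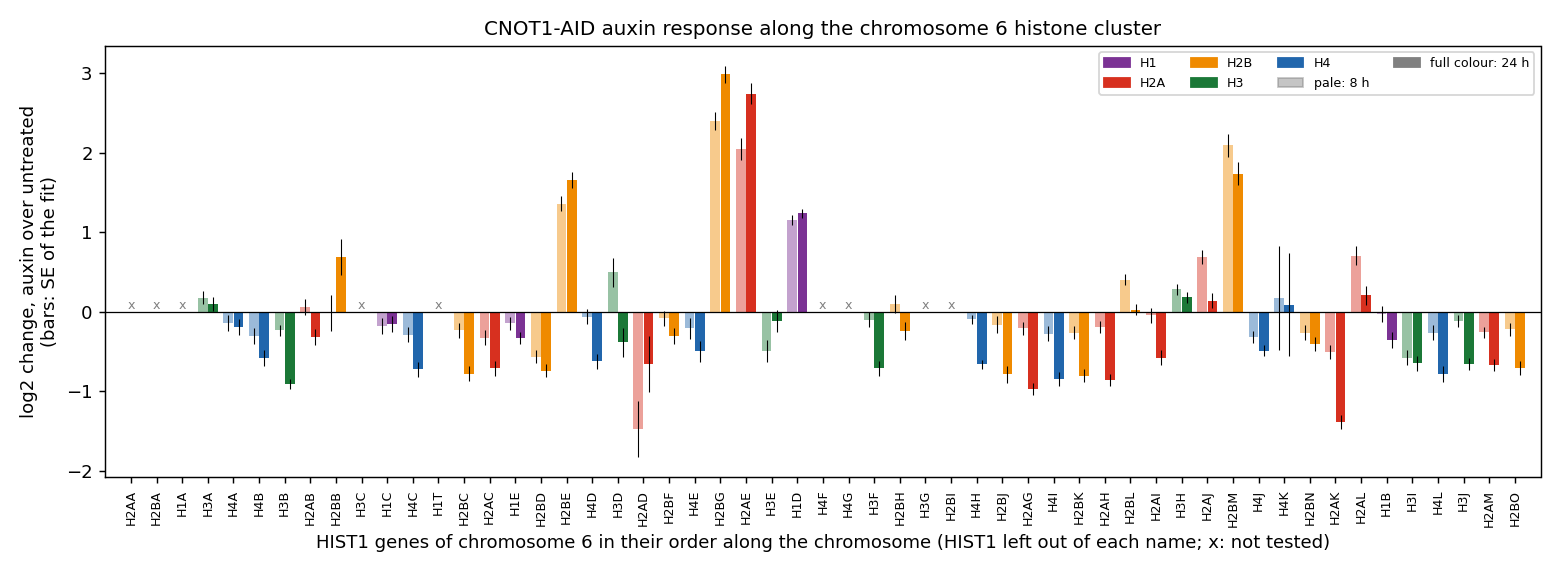
Log2 change with auxin in CNOT1-AID cells for the histone genes of chromosome 6 in their order along it (pale bars 8 h, full bars 24 h, error bars the SE of the fit, x for genes not tested, TMM scaling). The tall bars of HIST1H2BG, HIST1H2AE and HIST1H1D stand close together, and those of HIST1H2BE and HIST1H2BM apart from them, among full bars that are mostly below 0. Under ERCC scaling 32 members in all were higher and 1 lower at 8 h, beside 7764 and 1437 of all 14921 genes.

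The untreated lines already differed in some of the genes that responded. Of the 61 members tested, 18 had all 4 untreated CNOT1-AID libraries below all 4 untreated parental ones, where 8.88% of all genes did, and 2 had them above, where 6.25% did. HIST1H2BM held 19.99 to 29.68 TPM in untreated CNOT1-AID and 36.82 to 47.51 in untreated parental libraries. Its neighbour HIST1H2AJ held 172.54 to 220.11 TPM against 241.13 to 260.71. Neither gene overlapped between the lines. HIST1H2AL lay the other way, at 40.05 to 50.24 TPM in CNOT1-AID and 34.21 to 39.27 in parental cells. HIST1H2AE, at 9.12 to 12.27 against 11.82 to 14.09 TPM, and HIST1H2BG, at 0.88 to 1.54 against 1.34 to 1.63 TPM, overlapped. These differences between untreated lines were not tested.

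No histone gene passed the test in the lines without the CNOT1 degron. In parental cells 0 of 61 passed at 8 h and 0 at 24 h with limma, where 0.0134% of all genes were higher and 0.0067% lower at 8 h and 0% in either direction at 24 h. At an unadjusted p under 0.05 the parental counts were 0 higher and 30 lower at 8 h, beside 3% and 2.6% of all genes, and 0 and 0 at 24 h, beside 2.81% and 2.25%. In CNOT4-AID cells 0 of 61 passed at 8 h and 0 at 24 h with limma, beside 0.241% higher and 0.0469% lower of all genes at 8 h and 2.09% and 2.42% at 24 h. At an unadjusted p under 0.05 the CNOT4-AID counts were 0 higher and 12 lower at 8 h (6.04% and 4.66% of all genes), and 0 higher and 7 lower at 24 h (11.3% and 11.2%). HIST1H2BG, for example, held 1.54 and 1.68 TPM in untreated CNOT4-AID cells and 1.22 and 1.43 with auxin at 8 h, and 1.75 and 2.3 against 2.15 and 2.38 at 24 h, where the pairs overlapped.

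The response of CNOT1-AID cells was then tested against that of parental cells. At 8 h 13 members were higher and 6 lower in this difference by limma (27% and 23.2% of all genes), and at 24 h 6 were higher and 32 lower (32.3% and 29.6%). The 6 higher at 24 h were HIST1H2BG (log2 difference 2.94), HIST1H2AE (2.70), HIST1H2BM (1.81), HIST1H2BE (1.61), HIST1H1D (1.29) and HIST2H2AB (0.58). HIST2H2AC had a difference of -0.32 at 8 h and -1.48 at 24 h (SE 0.095, limma adjusted p = 9.79e-10). Under ERCC scaling 44 members were higher and 0 lower in the difference at 8 h, and 13 higher and 10 lower at 24 h. Of all 14921 genes 6915 were higher and 815 lower at 8 h with that scaling, and 6057 and 2105 at 24 h. The 6 lower at 8 h rest in part on single libraries, since 1 passed without replicate 1 of untreated CNOT1-AID cells at 8 h, 2 without replicate 1 of CNOT1-AID cells with auxin, and 3 without either auxin replicate of parental cells or without their untreated replicate 1.

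For CNOT4-AID against parental cells 0 members passed at 8 h by limma (0.0067% of all genes in each direction) and 0 at 24 h (0.0402% and 0.0268%). At an unadjusted p under 0.05 these counts were 3 higher and 0 lower at 8 h (3.99% and 3.12% of all genes) and 0 and 0 at 24 h (7.69% and 7.88%).

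Under triptolide 58 of 60 histone genes declined in parental cells, 58 in CNOT1-AID cells and 60 in CNOT4-AID cells (edgeR), where 48.3%, 10.9% and 85.6% of all genes did. HIST2H3A and HIST1H4K, whose 50-base windows all occur in other genes, had negative slopes that did not pass in parental cells (-0.32 and -0.26) or in CNOT1-AID cells (-0.24 and -0.31). The median half-life was 2.73 h in parental cells (1.9 to 4.73 h), 2.96 h in CNOT1-AID cells (2.1 to 6.69 h) and 2.44 h in CNOT4-AID cells (1.71 to 4.04 h). The median slopes, in log2 units per hour, were -0.37, -0.34 and -0.41 in these lines, against medians over all genes of -0.07, -0.03 and -0.15. In parental cells the median half-life by class was 2.9 h for H1, 2.77 h for H2A, 2.69 h for H2B, 2.49 h for H3 and 2.61 h for H4. The summed histone level, scaled to ERCC, was 51.1%, 30.2% and 5.81% of the 0 h mean at 3, 6 and 12 h in parental cells. It was 61.8%, 31.2% and 7.28% in CNOT1-AID cells, and 50%, 22.7% and 4.13% in CNOT4-AID cells. The CNOT4-AID pair at 12 h stood at 5.31% and 2.95%, with ERCC scale factors of 1.6274 and 2.6147. The pair of parental 0 h libraries stood at 125% and 75.3% of their mean, a spread wider than the gap between the lines at 3 h.

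**Figure D4:**
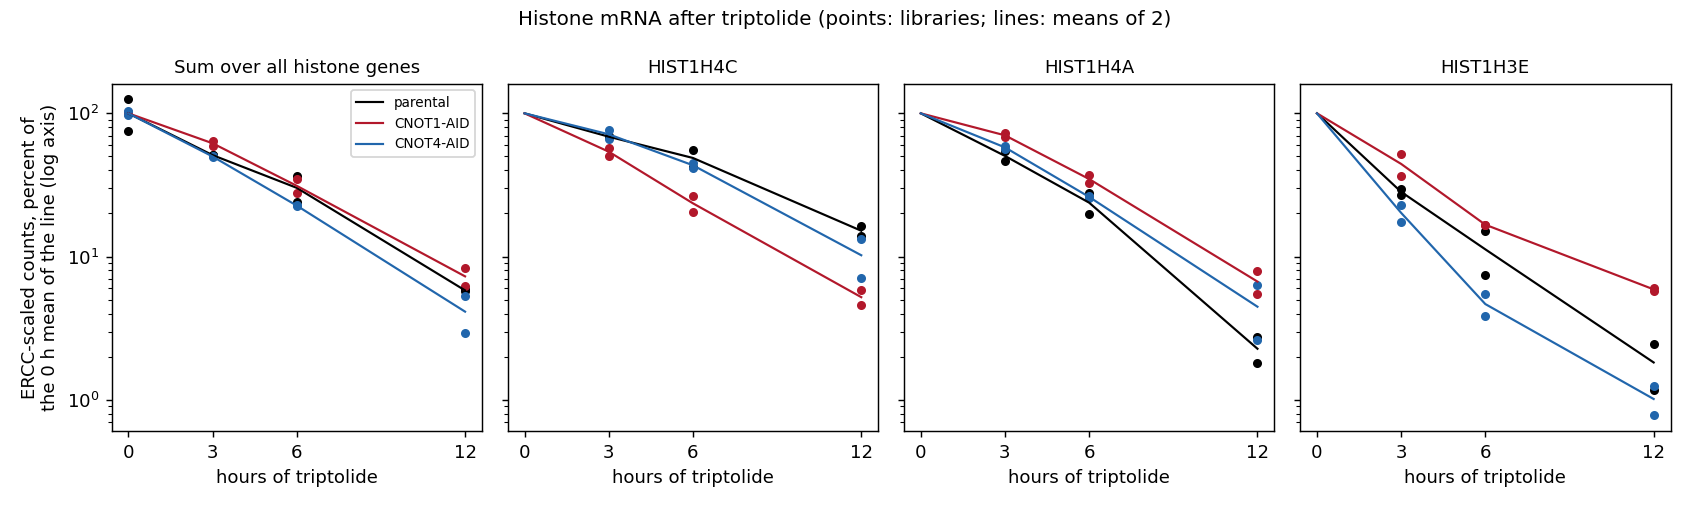
Level after triptolide as a percentage of the mean of the 0 h pair (log axis), ERCC-scaled, for the sum of all histone genes, HIST1H4C, HIST1H4A and HIST1H3E in each line, against hours of triptolide (points are libraries, drawn at 0 h for the sum alone; lines join the means of 2). All fall over 12 h, HIST1H4C lower in CNOT1-AID than in parental cells at each time after 0 h, and HIST1H4A and HIST1H3E higher there.

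The loss of 4 histone genes differed between CNOT1-AID and parental cells (edgeR quasi-likelihood), 3 slower and 1 faster of 60, beside 18.8% and 0.94% of all 16806 genes. The median slope difference was 0.03 per hour both over the members and over all genes. HIST1H4C (chr6:26103876-26104310, plus strand), the member lost faster, held 68.1% and 69.3% of its 0 h level at 3 h in parental cells, 42.3% and 55.3% at 6 h, and 14% and 16.3% at 12 h. In CNOT1-AID cells HIST1H4C held 57.4% and 50.6% at 3 h, 20.5% and 26.6% at 6 h, and 5.81% and 4.61% at 12 h. Every CNOT1-AID library after 0 h lay below both parental libraries of its time. All percentages of a line are of the mean of its 2 libraries at 0 h, so the later times are not independent of each other. The slope difference was -0.13 per hour (SE 0.03, edgeR adjusted p = 0.00169), with half-lives of 4.39 h in parental, 2.78 h in CNOT1-AID and 3.57 h in CNOT4-AID cells.

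HIST1H3E, HIST1H4A and HIST1H4B were lost more slowly in CNOT1-AID cells. HIST1H3E, an H3 gene, held 27% and 29.6% at 3 h, 7.48% and 15% at 6 h and 2.47% and 1.18% at 12 h in parental cells. In CNOT1-AID cells HIST1H3E held 36.8% and 51.9% at 3 h, 16.7% and 16.7% at 6 h and 6.01% and 5.8% at 12 h (slope difference 0.14, SE 0.05, edgeR adjusted p = 0.0369). Each of these CNOT1-AID values lay above both parental values of its time. The 12 h values rest on low counts, 7 and 4 in parental and 19 and 21 in CNOT1-AID cells.

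HIST1H4A held 46.3% and 54.6% at 3 h, 19.7% and 27.9% at 6 h and 2.73% and 1.82% at 12 h in parental cells. In CNOT1-AID cells HIST1H4A held 72.4% and 68% at 3 h, 32.5% and 37.1% at 6 h, and 7.9% and 5.49% at 12 h. These values did not overlap the parental ones (slope difference 0.12, SE 0.04, edgeR adjusted p = 0.0404). The absence of overlap rests on the shared 0 h means. The parental 0 h libraries held 1352 and 1115 counts of HIST1H4A, with ERCC scale factors of 0.7469 and 1.0699. HIST1H4B had a slope difference of 0.105 (SE 0.04, edgeR adjusted p = 0.0425). All 3 are near the threshold: 0 of them passed with TMM scaling or over 0 to 6 h alone, and 0 passed without any 1 of replicate 2 of CNOT1-AID cells at 0 h, replicate 1 of CNOT1-AID cells at 12 h, replicate 1 of parental cells at 0 h or replicate 2 of parental cells at 12 h.

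The genes that rose most in steady state did not pass in this comparison. HIST1H2AE had half-lives of 2.78 h in parental and 2.77 h in CNOT1-AID cells (slope difference -0.002, SE 0.06, edgeR adjusted p = 0.998). HIST1H2BG had half-lives of 2.22 h and 2.73 h (slope difference 0.08, SE 0.08, edgeR adjusted p = 0.663). These rest on low counts of HIST1H2BG, 73 and 61 in parental and 45 and 40 in CNOT1-AID cells at 0 h. At 12 h the counts were 2 and 1 in parental and 3 and 1 in CNOT1-AID cells. HIST1H2BM, HIST1H2BE and HIST1H1D had slope differences of 0.02, 0.015 and 0.04, and HIST2H2AC, with the largest fall at 24 h, one of 0.01. A p that misses the threshold does not show equal half-lives. The triptolide series began 2 h into auxin, whereas the steady-state libraries were taken at 8 h and 24 h.

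In CNOT4-AID against parental cells 0 of 60 members passed in either direction (edgeR, beside 0% slower and 0.845% faster of all genes), with 0 slower and 4 faster at an unadjusted p under 0.05, beside 0.179% and 44.1% of all genes. DESeq2 called 2 faster, and without replicate 1 of CNOT4-AID cells at 12 h edgeR called 12 faster.

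**Figure D5:**
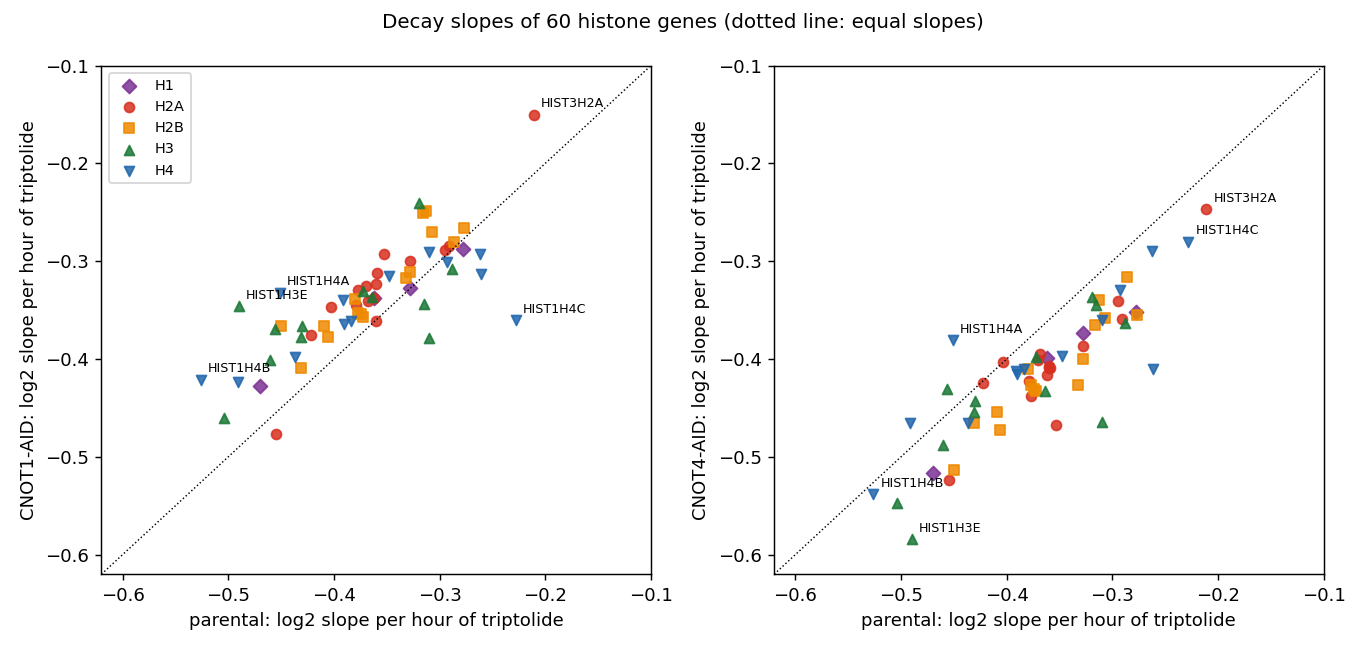
Slopes of loss in log2 units per hour for 60 histone genes, parental cells (x axis) against CNOT1-AID or CNOT4-AID cells (y axis), coloured by class. Most points lie near the diagonal, with HIST1H4C below it in CNOT1-AID cells, and the median is -0.37 in parental, -0.34 in CNOT1-AID and -0.41 in CNOT4-AID cells.

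Genes for proteins that act on histone mRNA were followed beside the members. SLBP, the stem-loop binding protein, went from 68.76 and 72.07 TPM to 137.86 and 152.34 with auxin at 8 h in CNOT1-AID cells, and from 74.22 and 67.13 to 155.26 and 136.6 at 24 h. The groups did not overlap, with log2 changes of 0.74 and 0.78 (SE 0.06, limma adjusted p = 1.09e-08 and 3.13e-09). SLBP mRNA was also lost more slowly in CNOT1-AID than in parental cells (slope difference 0.19, edgeR adjusted p = 8.29e-05). NPAT, the histone locus body protein that activates histone gene transcription, rose from 4.21 and 6.73 to 20.05 and 17.19 TPM at 8 h and from 7.47 and 6.12 to 22.78 and 19.93 at 24 h (log2 change 1.42 and 1.33, without overlap). NPAT mRNA was lost more slowly as well (slope difference 0.19, edgeR adjusted p = 1.03e-05). CASP8AP2, another histone locus body protein, was higher at 8 h (0.48, limma adjusted p = 0.000969) and not called at 24 h (0.14).

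UPF1, a helicase that takes part in histone mRNA decay, went from 34.31 and 38.02 to 57.11 and 56.83 TPM at 8 h (log2 change 0.36, limma adjusted p = 0.000108). At 24 h UPF1 was not called, at -0.03 with TMM scaling and 0.33 with ERCC scaling. ERI1, the exonuclease that trims histone mRNA 3′ ends, was not called at 8 h (-0.02, and 0.43 with ERCC scaling) and was lower at 24 h (-0.26, limma adjusted p = 0.0011), where ERCC scaling gave 0.09. Of 25 listed histone mRNA factors 10 were higher and 8 lower at 8 h (beside 33.1% and 29.8% of all genes), and 9 and 11 at 24 h (beside 36.7% and 34.8%). Other large movers were ZNF473, a zinc finger protein of the U7 snRNP (1.21 at 8 h and 1.62 at 24 h), LSM1 (-0.62 and -0.74), LSM10 of the U7 snRNP (-0.54 at 8 h) and the cap-binding NCBP2 (-0.92 at 24 h). Loss was slower for 7 of the 25 (28%, against 18.8% of all genes) and faster for 0 (0.94% of all genes).

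Genes listed as polyadenylated histone variants were set beside the members, without a measure of poly(A) tails in either. Of 10 tested 5 were higher and 5 lower at 8 h, and 3 and 7 at 24 h, with a median log2 change of 0.04 and -0.50, where 33.1% and 29.8% of all genes were higher and lower at 8 h and 36.7% and 34.8% at 24 h. H1F0, a linker variant abundant in non-dividing cells, was higher (0.835 and 1.92), as was the H3.3 gene H3F3B (0.75 and 1.115), while H2AFV (-0.99 and -1.54) and the macroH2A gene H2AFY (-0.56 and -0.93) were lower. The median parental slope of the variants was -0.05 per hour, against -0.37 for the replication-dependent genes.

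Of 22 histone chaperones 6 were higher and 8 lower at 8 h (beside 33.1% and 29.8% of all genes) and 5 and 11 at 24 h (beside 36.7% and 34.8%), among them ASF1A higher (1.02 and 1.10) and its paralogue ASF1B lower (-0.57 and -1.27). HJURP, the CENP-A chaperone, was higher at 8 h (1.30), DAXX, which deposits H3.3, was higher at 24 h (1.40), and ANP32E, a chaperone of H2A.Z, was lower at 24 h (-1.39).

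Of 35 S-phase genes 10 were higher and 20 lower at 8 h and 9 and 23 at 24 h, with medians of -0.29 and -0.455, beside 33.1% higher and 29.8% lower of all genes at 8 h and 36.7% and 34.8% at 24 h. E2F1, a transcription factor of the G1 to S transition, was lower (-1.66 at both times). CDC25A, a phosphatase that activates cyclin-dependent kinases (1.46 and 1.58), the replication licensing factor CDT1 at 8 h (1.06) and the cyclin gene CCNE1 at 24 h (1.30) were higher. Under ERCC scaling the S-phase counts were 14 higher and 6 lower at 8 h and 11 and 15 at 24 h. Of all 14921 genes 7764 were then higher and 1437 lower at 8 h, and 6877 and 2925 at 24 h. In bulk RNA, fewer cells in S phase and less histone RNA per cell cannot be told apart.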

How the data were processed

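Libraries were made from total RNA after ribosomal RNA removal with ERCC spike-in RNA added, per the labels' protocols. Per the submitters' processing notes, reads were handled on GRCh38 with featureCounts, SAMtools, DESeq2, RSEM and STAR 2.5.1b, and the step each tool served is not stated. The steady-state values deposited by the authors are TPM, whose depth is unknown. The triptolide values deposited by the authors are raw counts per gene.

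TPM plus 0.5 was tested on the log2 scale after TMM scaling with limma 3.58.1 (trend and robust options), for the 14921 genes with at least 1 TPM in at least 2 libraries, with one mean per group and 12 residual degrees of freedom. Triptolide counts of 16806 genes were tested with edgeR 4.0.16 (robust quasi-likelihood), as slopes per hour with 18 residual degrees of freedom, after scaling library sizes to the 56 ERCC sequences averaging 10 counts or more. Where a slope difference is positive, loss was slower. R was version 4.3.3. All p-values were adjusted by Benjamini-Hochberg over all genes tested in a comparison, with a threshold of 0.05, and both fits were tested on simulated data. Log2 changes of low genes are understated by the added 0.5.

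The histone members and the gene lists were chosen with earlier results of these data known. Described with values were the 2 members of each class with the highest mean TPM, and the 3 largest rises and 3 largest falls past the threshold in each comparison; SLBP, NPAT, UPF1, ERI1 and CASP8AP2; and the largest movers of the other lists. Members named beyond this rule were chosen after their values were seen. Alternatives were other scalings (ERCC, median-of-ratios or none, and TMM for counts), other pseudocounts (0.1 and 1), no filter on low values, DESeq2 1.42.0 for counts, 0 to 6 h of triptolide, the replicate number as a block, and leaving out each library. Promoter windows came from RefSeq (GRCh38.p14). TT-seq was not analysed here. A listed S-phase gene is not reported here.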

Additional observations from a re-analysis of the deposited data

Results flagged for a closer look

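The response of the histone genes to auxin differed between CNOT1-AID and parental cells when the difference itself was tested with limma. At 8 h 13 of 61 members were higher and 6 lower after TMM scaling, where 27% and 23.2% of all genes were. With that scaling a smaller share of the members than of all genes was called in each direction. Under ERCC scaling 6915 of all 14921 genes were higher and 815 lower at 8 h. The share of members called higher then exceeded that of all genes. At 24 h with TMM scaling 6 members were higher and 32 lower, where 32.3% and 29.6% of all genes were. Under triptolide 3 of 60 members were lost more slowly (HIST1H3E, HIST1H4A and HIST1H4B) and 1 faster (HIST1H4C) in CNOT1-AID cells by edgeR, beside 18.8% and 0.94% of all genes. A smaller share of the members than of all genes was thus called slower. None of the 3 slower calls held with TMM scaling or over 0 to 6 h, and leaving out 1 library at a time gave 0 to 3 of them.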

How the results depend on the processing

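Counts of histone genes depended mainly on the scaling. For CNOT1-AID cells with auxin at 8 h, ERCC scaling gave 32 higher and 1 lower (7764 and 1437 of all 14921 genes). No scaling gave 6 lower at 8 h (2251 of all genes), and ERCC scaling 25 lower at 24 h (2925 of all genes). For the difference from parental cells at 8 h, ERCC scaling gave 44 higher and 0 lower, no scaling 0 lower and no filter 3 lower. At 24 h that difference gave 13 higher and 10 lower with ERCC scaling, 12 higher with no scaling and 10 higher with no filter. Over all 14921 genes ERCC scaling gave 6915 higher and 815 lower in that difference at 8 h, and 6057 and 2105 at 24 h. In CNOT4-AID cells 1 gene was called lower at 8 h with no scaling and 1 higher at 24 h with ERCC scaling. For loss in CNOT1-AID against parental cells, TMM scaling gave 0 slower and 3 faster, and 0 to 6 h alone gave 0 slower. For CNOT4-AID against parental cells DESeq2 gave 2 faster. The ratios of summed TPM with auxin over untreated in CNOT1-AID cells at 8 h were, for H1, H2A, H2B, H3, H4 and all members in this order, 1.04, 0.92, 0.88, 0.923, 0.839 and 0.897 with TMM and 1.45, 1.28, 1.23, 1.29, 1.17 and 1.25 with ERCC scaling. At 24 h they were 1.01, 0.681, 0.67, 0.656, 0.656 and 0.69 with TMM and 1.29, 0.876, 0.862, 0.845, 0.844 and 0.888 with ERCC scaling. The ratio over all members was 0.931 at 8 h and 0.94 at 24 h with TMM and 1.14 at 24 h with ERCC scaling in CNOT4-AID cells, and 0.86 with TMM and 0.823 with ERCC scaling in parental cells at 8 h. Apart from scalings, which change the reference by construction, the cause was not tested.

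Leaving out 1 library at a time gave, in CNOT1-AID cells, 11 to 13 higher and 9 to 32 lower at 8 h and 6 to 8 higher and 36 to 38 lower at 24 h. In the difference from parental cells it gave 11 to 16 higher and 1 to 7 lower at 8 h, and 6 to 8 higher and 28 to 35 lower at 24 h. In CNOT4-AID cells 0 to 3 genes were called at 8 h, the 3 without replicate 1 with auxin. Genes lost more slowly in CNOT1-AID cells numbered 0 to 3 and those lost faster in CNOT4-AID cells 0 to 12, the 12 without replicate 1 at 12 h. The only gene lost faster in CNOT1-AID cells, HIST1H4C, passed in each of these fits.

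Log2 changes that turned sign at 8 h in CNOT1-AID cells became, with ERCC and with no scaling, 0.296 and 0.12 for HIST1H1C, 0.33 and 0.154 for HIST1H1E, 0.414 and 0.238 for HIST2H2AA4, 0.284 and 0.108 for HIST1H2AH, 0.209 and 0.032 for HIST1H2BK, 0.244 and 0.067 for HIST1H2BC, 0.24 and 0.064 for HIST1H3B, 0.359 and 0.183 for HIST1H3J, 0.379 and 0.203 for HIST1H4H, and 0.434 and 0.263 for ERI1. HIST1H4J turned to 0.157 with ERCC scaling and ERI1 to 0.005 with median-of-ratios scaling. At 24 h HIST1H1C turned to 0.214 with ERCC and 0.112 with no scaling, HIST1H1E to 0.035 and ERI1 to 0.087 with ERCC scaling, and UPF1 to 0.33 with ERCC, 0.23 with no and 0.005 with median-of-ratios scaling. Leaving out 1 CNOT1-AID library at a time gave -0.293 to 0.005 for HIST1H1E and -0.191 to 0.07 for HIST2H2AA4 at 8 h (positive without untreated replicate 1), -0.092 to 0.042 for ERI1 at 8 h (positive without untreated replicate 2), and -0.102 to 0.065 for UPF1 at 24 h (0.065 without auxin replicate 1 and 0.038 without untreated replicate 2). Of the alternatives run for named genes 496 kept direction and call, 54 lost the call, 6 gained it and 34 turned sign.

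Replicate numbers did not pair the libraries: deviations of same-numbered libraries correlated at -0.207 to 0.102. With the replicate number as a block the counts were 12 higher and 25 lower at 8 h and 8 and 39 at 24 h in CNOT1-AID cells, and 2 slower and 1 faster for loss. The number of libraries (2 per group) and, in TPM, the unknown depth limit the precision.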
